A study of Canis lupus familiaris with 34 samples.

Results

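The integrins and the core proteins of the focal adhesion were examined in mitral valves of Cavalier King Charles Spaniels. The set holds 38 genes, chosen by symbol and function: 18 integrin alpha subunits, 8 integrin beta subunits and 12 proteins of the adhesion plaque inside the cell. All 38 had a feature among the 23768 features of the count table, all 38 were among the 19568 features with at least 100 counts in total, and each had at least 1 count in every dog. The valves came from 34 privately owned dogs of this breed and were taken after euthanasia. The study describes the dogs as about 10 years old, with ages that spread over several years within each group. The 10y-noCHF group held 19 dogs (10 females, 9 males) without congestive heart failure (CHF), most of them with milder myxomatous mitral valve disease (MMVD), and the 10y-MMVD-CHF group held 15 dogs (6 females, 9 males) in which MMVD had progressed to CHF. The labels give no genotype or drug treatment, and the study's criteria for CHF include a response to diuretics. Each dog gave 1 poly-A RNA library, with 46185256 to 82361245 counts per library.

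Integrins are receptors made of 1 alpha and 1 beta chain that hold cells to collagen, laminin, fibronectin or to other cells. Inside the cell, talin and kindlin bind the tail of the beta chain and switch the receptor on, vinculin, zyxin and the parvins tie it to actin, and focal adhesion kinase, integrin-linked kinase and paxillin signal from the site. In a valve leaflet this machinery anchors interstitial cells and the covering endothelium to the matrix, while leukocytes carry integrins of their own.

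Levels are given as CPM, counts scaled to the size of each library, after normalization by trimmed mean of M values (TMM), and differences as log2. For 35 of the 38 members the feature was a human gene aligned to the canine genome (build canFam4), which spans introns as well as exons. ITGA2B, ITGAD and ITGB3 were counted over canine exons. Levels were therefore compared between dogs and not between genes. Whole valves were measured, so fewer cells of a type and less RNA per cell cannot be told apart. Interstitial cell markers were abundant in every dog, with means of log2(CPM + 1) from 9.95 to 11.2 over 10 genes. Heart muscle markers varied far more, from 1.2 in CAV749 to 10.7 in CAV1047 over 19 genes, with 6.14 ± 2.98 (SD, n = 19) in 10y-noCHF and 6.42 ± 2.66 (SD, n = 15) in 10y-MMVD-CHF. The leukocyte marker mean (17 genes, mostly of macrophages) was 6.08 ± 0.458 and 6.28 ± 0.403, and the endothelial marker mean (12 genes, without VWF) was 5.49 ± 0.265 and 5.50 ± 0.21. CAV614 and CAV1047, both 10y-MMVD-CHF, stood apart in earlier results of these data, and were left out in an alternative.

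The study's main question was how valves in CHF differ from valves of dogs of the same breed and of similar age without it. None of the 38 members passed a false discovery rate (FDR) of 0.1 in edgeR's quasi-likelihood test with sex as a covariate, where 0.118% of all tested features did. None passed with DESeq2 either, where 64 features of the whole table did. At an unadjusted p under 0.05, 2 of the 38 members (5.26%) stood out, against 6.31% of all features. The members' differences were small and ran both ways, with 21 higher and 17 lower in CHF, a median of 0.02 and a range of -0.42 to 0.38. Over all tested features the median was 0.01.

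**Figure D1:**
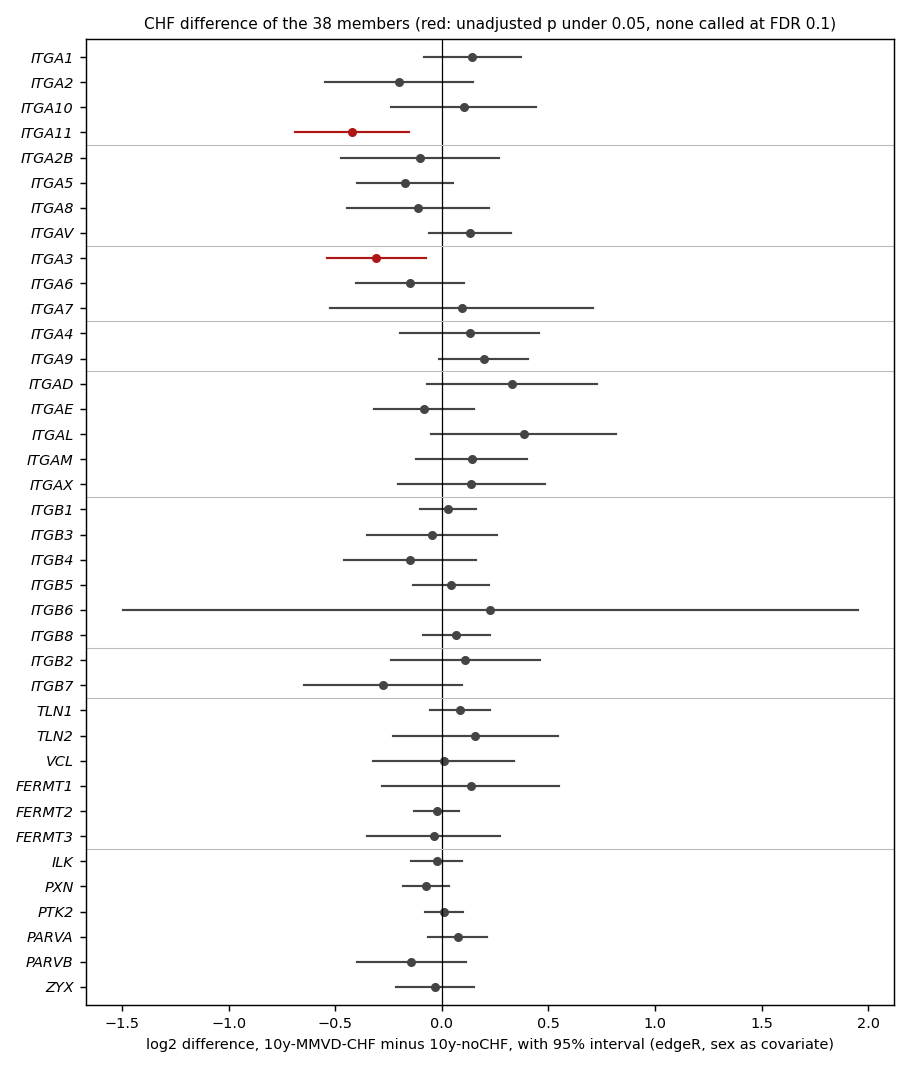
The log2 difference between 10y-MMVD-CHF (n = 15) and 10y-noCHF (n = 19) is plotted on the horizontal axis for each of the 38 members, ordered by role, with points for edgeR estimates and bars for 95% intervals. ITGA11 at -0.42 and ITGA3 at -0.31, in red, are the 2 members with an unadjusted p under 0.05, and ITGB6 has by far the widest interval.

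Among the collagen receptors, ITGA11 (alpha 11, a receptor for fibrillar collagen on fibroblasts; chr30:32748542-32867294, minus strand) had the smallest p. Its level ran from 18.03 to 54.3 CPM with a median of 31.3 in 10y-noCHF and from 14.5 to 36.4 CPM with a median of 21.6 in 10y-MMVD-CHF. The groups overlapped, but 13 of 15 CHF dogs had less than the median of the other group. The means were 30.95 ± 8.83 CPM (SD, n = 19) and 22.98 ± 6.01 CPM (SD, n = 15), a log2 difference of -0.42 (SE 0.132, 95% interval -0.69 to -0.16, edgeR p = 0.00289, adjusted p = 0.427). The sign held in each of the 34 fits that left out 1 dog, between -0.49 and -0.37, with adjusted p-values from 0.261 to 0.63. ITGA11 was also lower in valves with a higher leukocyte marker mean, and that mean was 6.08 in 10y-noCHF and 6.28 in CHF. With it in the model the CHF difference of ITGA11 was -0.35 (edgeR p = 0.00728, adjusted p = 0.458). The other collagen receptors gave no unadjusted p under 0.05. ITGA1 stood at 0.14 (95% interval -0.08 to 0.37), ITGA2 at -0.20 (-0.55 to 0.14) and ITGA10 at 0.10 (-0.24 to 0.44). The ITGA10 feature lies wholly inside a second feature, PDZK1P1, with 1701422 counts in total against 63231, and reads were given to every feature they overlapped.

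ITGA3 (alpha 3, a laminin receptor of epithelial and endothelial cells; chr9:26016397-26046529, plus strand) was the other member with an unadjusted p under 0.05. It ranged from 28.6 to 78.0 CPM (median 40.2) in 10y-noCHF and from 26.4 to 48.4 CPM (median 35.3) in 10y-MMVD-CHF. Above 48.4 CPM there were 10y-noCHF dogs only, and 12 of 15 CHF dogs had less than the median of the other group. The log2 difference was -0.31 (SE 0.114, 95% interval -0.54 to -0.08, edgeR p = 0.0107, adjusted p = 0.607). It stayed between -0.34 and -0.24 when single dogs were left out. The other laminin receptors were ITGA6 at -0.15 (-0.40 to 0.10) and ITGA7, the muscle laminin receptor, at 0.09 (-0.52 to 0.71). With single dogs left out the ITGA7 difference ran from -0.18 (without CAV1047) to 0.29 (without CAV865). Its sign changed in 2 of these fits.

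The fibronectin and vitronectin receptors were close between the groups. ITGAV, the alpha chain shared by most RGD-binding integrins, ran from 484.8 to 1048 CPM (median 701) in 10y-noCHF and from 585.7 to 1131 CPM (median 763) in 10y-MMVD-CHF, with almost full overlap. Its difference was 0.13 (95% interval -0.06 to 0.32). ITGA5, the main fibronectin receptor alpha chain, stood at -0.17 (-0.40 to 0.05), ITGA8 at -0.11 (-0.44 to 0.22) and the platelet chain ITGA2B at -0.10 (-0.47 to 0.27). ITGA9, a receptor for tenascin C and VCAM1, had an unadjusted p under 0.05 in alternatives only. Among these were limma voom (p = 0.0205), leaving out CAV614 and CAV1047 or CAV1047 alone, and the muscle marker mean in the model. Its difference was 0.20 (-0.01 to 0.40, edgeR p = 0.0633, adjusted p = 0.803) over all dogs and 0.21 (edgeR p = 0.0359, adjusted p = 0.614) with the marker mean. Without CAV614 and CAV1047 it was 0.27 (edgeR p = 0.00412, adjusted p = 0.412), and without CAV1047 alone 0.25 (edgeR p = 0.00737, adjusted p = 0.496). Its level was 199 ± 34.03 CPM (SD, n = 19) and 228 ± 52.0 CPM (SD, n = 15), and CAV1047, a CHF dog, had the lowest value of all dogs at 114 CPM.

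The beta chains differed in how tightly the comparison was bounded. ITGB1, the partner of most alpha chains, ran from 417 to 743 CPM (median 582) in 10y-noCHF and from 482 to 725 CPM (median 593) in 10y-MMVD-CHF. The difference was 0.03 with a 95% interval of -0.10 to 0.16. ITGB5 and ITGB8, partners of ITGAV, stood at 0.04 (-0.13 to 0.22) and 0.07 (-0.09 to 0.23), and ITGB4, the laminin receptor chain of hemidesmosomes, at -0.15 (-0.46 to 0.16). ITGB6, an epithelial partner of ITGAV, stood at 0.23 with an interval of -1.50 to 1.95, and at -0.45 without CAV1047. With the muscle marker mean in the model it was 0.02 (-0.37 to 0.42). ITGB3 stood at -0.05 (-0.35 to 0.26), counted over 2389 bases of canine exons, and at -0.105 (-0.35 to 0.14) over its human feature. Of the canine feature, 10.6% overlaps EFCAB13-DT on the other strand, which has 35178 counts in total against 18666.

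Leukocyte integrins gave positive estimates in most cases, none past a p of 0.05 in edgeR over all dogs with sex as the only covariate. ITGAL, the alpha chain of LFA-1, was at 2.04 ± 0.978 CPM (SD, n = 19) and 2.65 ± 1.04 CPM (SD, n = 15), a difference of 0.38 (95% interval -0.05 to 0.82, edgeR p = 0.0813, adjusted p = 0.82). ITGAD gave 0.33 (-0.07 to 0.73) over canine exons and 0.18 (-0.19 to 0.55) over its human feature. Without CAV614 and CAV1047 ITGAD gave 0.44 (edgeR p = 0.0206, adjusted p = 0.561), and limma voom gave 0.47 for ITGAD (p = 0.0177, adjusted p = 0.398) and 0.51 for ITGAL (p = 0.0172, adjusted p = 0.396). That human feature also covers 35.8% of the ITGAX span. ITGAM and ITGAX, the alpha chains of complement receptors on macrophages, both stood at 0.14, their shared partner ITGB2 at 0.11, ITGA4 at 0.13, ITGAE at -0.09 and ITGB7 at -0.27. FERMT3, the kindlin of blood cells, stood at -0.04 over all dogs. With the leukocyte marker mean in the model it was -0.24 (edgeR p = 0.00315, adjusted p = 0.362), a setting chosen after the data were seen. In that same fit ITGB7 was at -0.37 (edgeR p = 0.0365, adjusted p = 0.608).

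Of the plaque proteins, PTK2 (focal adhesion kinase) ran from 76.1 to 106 CPM in 10y-noCHF and from 83.4 to 99.7 CPM in 10y-MMVD-CHF, a difference of 0.01 (95% interval -0.08 to 0.10). It varied least of all members, with a coefficient of variation of 8.11% over the 34 dogs, followed by FERMT2 at 9.26%, PXN at 10.4% and ILK at 10.8%. FERMT2 and ILK stood at -0.02 each, PXN at -0.07, TLN1 at 0.09, PARVA at 0.08, ZYX at -0.03, and PARVB at -0.14 (-0.40 to 0.11). Intervals were wider for TLN2 at 0.16 (-0.23 to 0.55), FERMT1 at 0.13 (-0.28 to 0.55) and VCL at 0.01 (-0.32 to 0.34). Without CAV1047 these were -0.06 for TLN2, -0.07 for FERMT1 and -0.17 for VCL, so their signs turned on that dog, and the sign of VCL changed in 11 of the 34 single-dog fits. ILK shared 69.5% of its span with TAF10 on the other strand, and counting took no account of strand, so its reads cannot be told from those of TAF10.

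Of 69 further genes of the focal adhesion, 68 had a feature and none passed the FDR of 0.1. Among them 4 (5.88%) had an unadjusted p under 0.05, against 6.31% of all features. FBLIM1, a filamin-binding adaptor of adhesions, stood at 246 ± 27.1 against 271 ± 26.1 CPM (log2 difference 0.15, 95% interval 0.04 to 0.26, edgeR p = 0.00704, adjusted p = 0.532), and 13 of 15 CHF dogs exceeded the median of the other group. CAV1, the caveolin that forms membrane pits, was at 58.2 ± 19.9 and 44.8 ± 10.2 CPM (-0.38, -0.66 to -0.10, adjusted p = 0.592), with 13 of 15 CHF dogs below. ASAP1 stood at -0.19, LAYN at 0.50 and GIT1 at -0.14, with edgeR adjusted p-values of 0.672, 0.778 and 0.787.

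Of 60 integrin ligands, 57 were tested and 2 (3.51%) passed, against 0.118% of all features, both known from earlier results of these data, of which VWF is described here. VWF, the von Willebrand factor bound by ITGA2B with ITGB3, ran from 17.4 to 211 CPM (median 61.5) in 10y-noCHF and from 81.7 to 557 CPM (median 168) in 10y-MMVD-CHF, a difference of 1.40 (0.80 to 2.01, edgeR adjusted p = 0.0678). All 15 CHF dogs exceeded the 10y-noCHF median of VWF, and the call was lost in 11 of the 34 fits without 1 dog and without CAV614 and CAV1047 (1.34, adjusted p = 0.117). The chains of its receptor gave -0.10 (ITGA2B) and -0.05 (ITGB3), neither past the FDR of 0.1. The next ligands by p were ADAM9 at 0.20, TGFBI at -0.30 and VCAM1, a partner of ITGA4 with ITGB1, at 0.40, with adjusted p-values of 0.744, 0.778 and 0.779 in edgeR.

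Sex made no detectable difference to the set. None of the 38 members passed the FDR of 0.1 between males and females and none had an unadjusted p under 0.05, where 0.143% and 2.98% of all features did. DESeq2 gave 0 members under an unadjusted p of 0.05 and limma voom 1, and neither called any. A test of whether the CHF difference itself differed by sex called none of the 38 members, as it called none of the 19568 features (0%). DESeq2 called 3 features, no member among them. At an unadjusted p under 0.05 it gave 4 members (10.5%), against 6.02% of all features, and DESeq2 gave 5 and limma voom 6, beside 1281 and 1978 of all features where edgeR gave 1178. All 4 in edgeR were higher in CHF than in 10y-noCHF among females and lower or level among males. ITGA6 had medians of 66.7 and 83.0 CPM in females without and with CHF, and of 81.1 and 60.3 CPM in males, with overlap in both sexes. Its fitted CHF difference was 0.18 in females and -0.43 in males (difference -0.61, edgeR p = 0.0135, adjusted p = 0.815). TLN1, the talin of most non-muscle cells, gave 0.26 and -0.07 (edgeR p = 0.016, adjusted p = 0.815). ITGAV gave 0.35 and -0.05 (edgeR p = 0.033, adjusted p = 0.817), and ITGA4, the lymphocyte and monocyte chain, 0.49 and -0.18 (edgeR p = 0.0398, adjusted p = 0.819). CAV1047 had the lowest ITGA4 level of the 6 females with CHF, at 6.56 CPM against 18.2 CPM in the next. Without it the difference between the sexes was -0.83 for ITGA4 (edgeR p = 0.00518, adjusted p = 0.479) and -0.34 for ITGAV (edgeR p = 0.0726), while ITGA9 reached -0.53 (edgeR p = 0.00183, adjusted p = 0.479) and ITGAX -0.74 (edgeR p = 0.0186, adjusted p = 0.479). ITGA6 (-0.56) and TLN1 (-0.33) kept an unadjusted p under 0.05 in that fit. The share of all features with such a p in it was not counted.

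**Figure D2:**
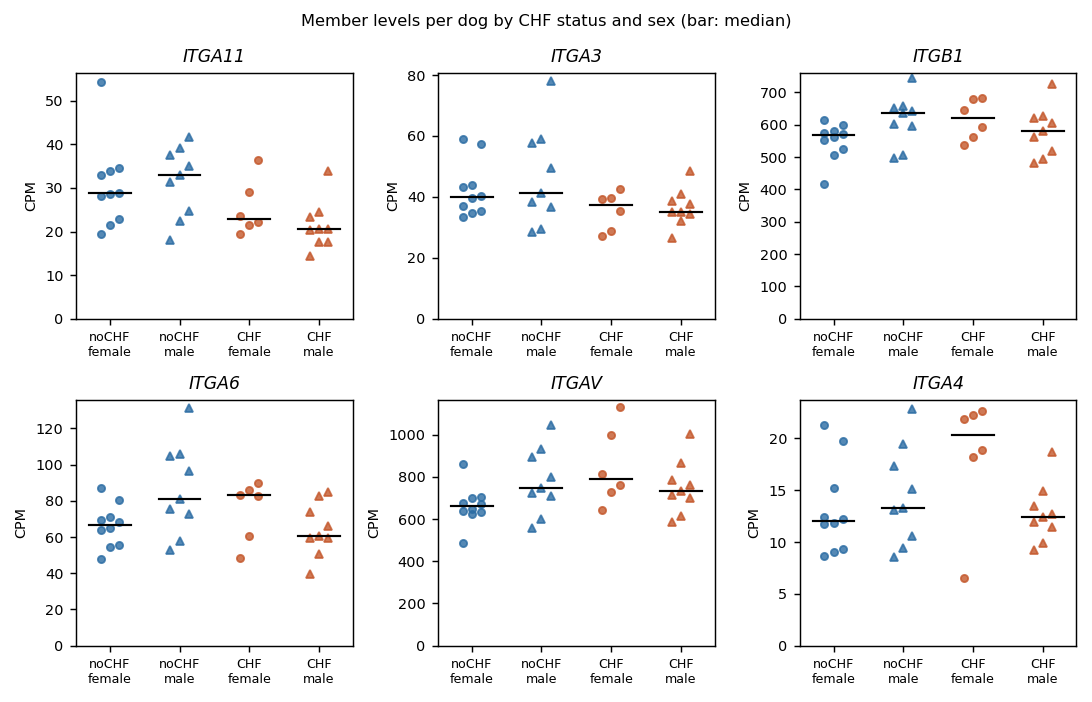
CPM of ITGA11, ITGA3, ITGB1, ITGA6, ITGAV and ITGA4 per dog on the vertical axis, split by CHF status and sex (10 and 9 dogs without CHF, 6 and 9 with CHF), with black bars at the medians. All groups overlap in each panel. ITGA11 and ITGA3 have lower medians in both CHF groups, and ITGA6 has a higher median in females with CHF (83.0 against 66.7 CPM) and a lower one in males (60.3 against 81.1 CPM).

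The members differed in how far they varied between dogs. From the lowest to the highest dog, ITGA7 ranged 7.97-fold, TLN2 5.72-fold and ITGB1 1.78-fold. ITGB6 ran from 2 counts in CAV749 (0.0258 CPM) to 132 CPM in CAV1047. To describe this spread, each feature was fitted on the mean of a marker list next to sex and CHF status. A slope is the log2 change of a member per log2 unit of the marker mean. No member is in a marker list.

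On the muscle marker mean, 8 members rose (21.1%) and 13 fell (34.2%) at the FDR of 0.1, where 19.6% of all tested features rose and 19.2% fell. The medians of the slopes were -0.02 over the members and -0.01 over all features. The steepest was ITGB6, at 1.2 (SE 0.0468, edgeR adjusted p = 1.6e-21), so that its level about kept pace with the muscle markers. No other feature overlaps it (chr36:6127524-6202352, minus strand). ITGA7 followed at 0.27 (SE 0.0257, adjusted p = 1.32e-10 in edgeR), from 16.8 CPM in CAV494 to 134 CPM in CAV1047. The other members that rose were FERMT1 and TLN2 (0.16 each), VCL (0.12), PARVB (0.07), FERMT2 and PXN (0.02 each). TLN2 is a talin abundant in striated muscle and VCL, vinculin, sits in its costameres. VCL ran from 227 to 833 CPM, with CAV1047 at the top and the next dog at 565 CPM. Without CAV614 and CAV1047 the slopes were 1.21 for ITGB6, 0.27 for ITGA7, 0.14 for TLN2 and 0.11 for VCL, all past the threshold, while that of PXN was not.

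**Figure D3:**
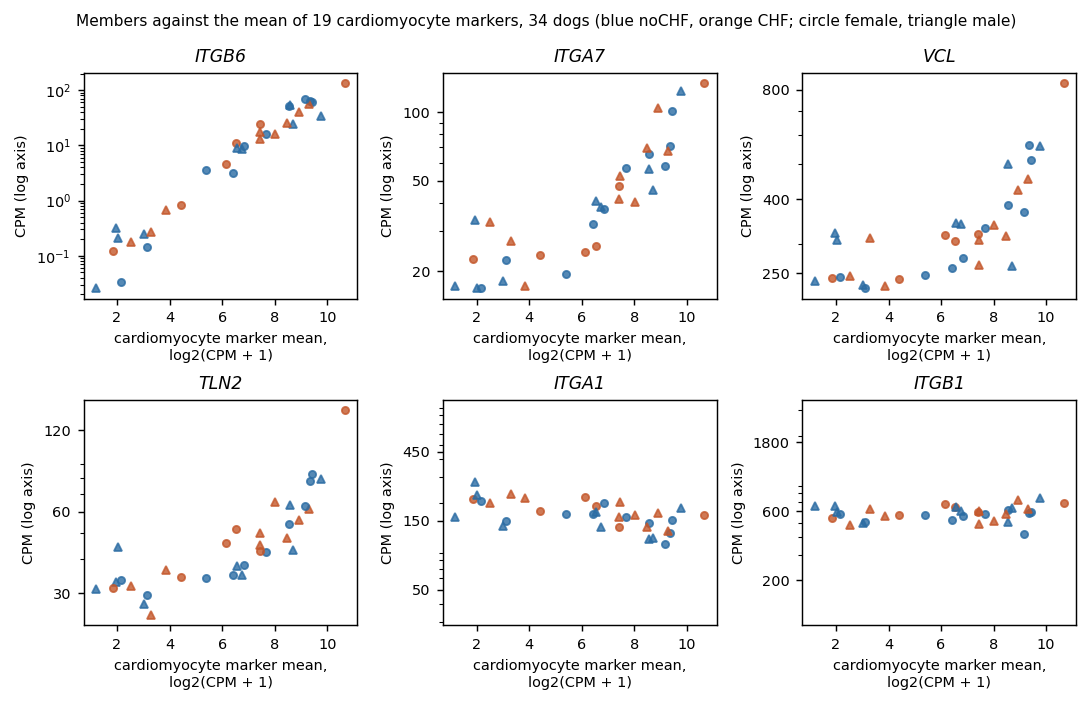
CPM per dog (vertical, log axis) against the mean log2(CPM + 1) of 19 heart muscle markers (horizontal) for 6 members in 34 dogs, in blue for 10y-noCHF and orange for 10y-MMVD-CHF, circles for females and triangles for males. ITGB6 climbs over the whole range of the marker mean, ITGA7, VCL and TLN2 climb mostly at its upper end, ITGA1 declines gently (slope -0.07) and ITGB1 is level (slope 0.01). Blue and orange points are mixed in every panel.

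The 13 members that fell with muscle were ITGA2B (-0.12), ITGB7 and ITGA10 (-0.09 each), ITGA8 (-0.08), ITGA1 and ITGAX (-0.07 each), ITGB2 and ITGAM (-0.06 each), ITGA3 and ZYX (-0.05 each), ITGB5, PARVA and ITGA9 (-0.04 each). Without CAV614 and CAV1047 it was 8, with ITGA9, ITGAM, ITGAX, ITGB2 and ITGB7 no longer called. The share of all features called without those dogs was not counted. ITGB1, ITGAV, ITGA5, ITGA6, ITGB8, ILK, TLN1 and PTK2 were not called. For ITGB1 the slope was 0.01 (SE 0.0114) and for PTK2 0.00 (SE 0.0081), over a range of marker means in which ITGA7 rose several fold. The dogs with the lowest leukocyte means, CAV1731 (5.21) and CAV1047 (5.25), had muscle means of 9.36 and 10.7, so all 3 marker means were also fitted together. Then 6 members rose with muscle (15.8%, against 13.8% of all features) and 9 fell (23.7%, against 11.5%). Those that rose were ITGB6 (1.17), ITGA7 (0.25), FERMT1 (0.14), TLN2 (0.13), VCL (0.08) and PARVB (0.06). The slopes of ITGB2, ITGAM, ITGAX, ITGA9, ITGB5, ITGB7, FERMT2 and PXN were no longer called, that of ITGB2 passing from -0.06 to 0.00, and those of ITGB4 and ILK were called in addition.

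On the leukocyte marker mean alone, 12 members rose (31.6%) and 9 fell (23.7%), against 16.2% and 19.5% of all features. Without CAV614 and CAV1047 it was 6 and 7, and without CAV1047 alone the 21 calls became 12. The share of all features called was not counted in those fits. In the model with all 3 marker means, 8 rose (21.1%, against 9.28%) and 3 fell (7.89%, against 8.9%). The 8 were ITGB2 (1.16, SE 0.0863, edgeR adjusted p = 2.32e-11), ITGAL (1.06), ITGAX (1.04), FERMT3 (1.02), ITGA4 (0.94), ITGAM (0.61), ITGB3 (0.47) and ITGA9 (0.29). ITGB2, the beta chain restricted to leukocytes, ran from 11.1 CPM in CAV1047 to 58.9 CPM in CAV743, the dogs at the second lowest and at the highest leukocyte mean. A slope near 1 means that a member rose in proportion to the marker mean, as it did for ITGB2, ITGAL, ITGAX, FERMT3 and ITGA4. ITGAD (0.32) and ITGAE (0.29), the remaining leukocyte alpha chains, were not called, nor was ITGB7 (0.24). The members that fell were ITGA11 (-0.52, SE 0.154, edgeR adjusted p = 0.0236), VCL (-0.51) and ILK (-0.17). Without CAV614 and CAV1047 the same 3 fell, and 6 of the 8 rose. ITGB3 (0.46, edgeR adjusted p = 0.115) and ITGA9 (0.20, edgeR adjusted p = 0.222) were then not called.

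Few members followed the endothelial marker mean. Alone, it called ITGB4 (1.14) and PXN (0.36) in the positive direction and ITGB5 (-0.62) and ITGB7 (-1.20) in the negative, 5.26% of members each way against 1.25% and 0.853% of all features. With the other marker means in the model 5 rose (13.2%, against 1.95%) and 1 fell (2.63%, against 0.869%). ITGB4, the beta chain of the hemidesmosomal laminin receptor, was steepest at 1.45 (SE 0.22, edgeR adjusted p = 0.000128), followed by ITGB3 and ITGA2B (0.92 each), ITGA5 (0.67) and ITGA9 (0.66), and ITGB5 fell at -0.52. Without CAV614 and CAV1047 ITGA2B (0.83, edgeR adjusted p = 0.126) and ITGA5 (0.60, edgeR adjusted p = 0.142) were not called, while ITGA6 and PARVB rose and ILK and ITGB7 fell in addition. ITGB4 ranged from 58.9 CPM in CAV1047 to 257 CPM in CAV748, the 10y-noCHF dog with the highest endothelial mean of its group (5.89). CAV1047 had an endothelial mean of 5.44, near the median of 5.51 over all dogs. In CAV648, the dog with the highest endothelial mean of all (6.13), ITGB4 was at 191 CPM. The endothelial mean itself spanned only 4.99 to 6.13, so its slopes rest on a narrow range.

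**Figure D4:**
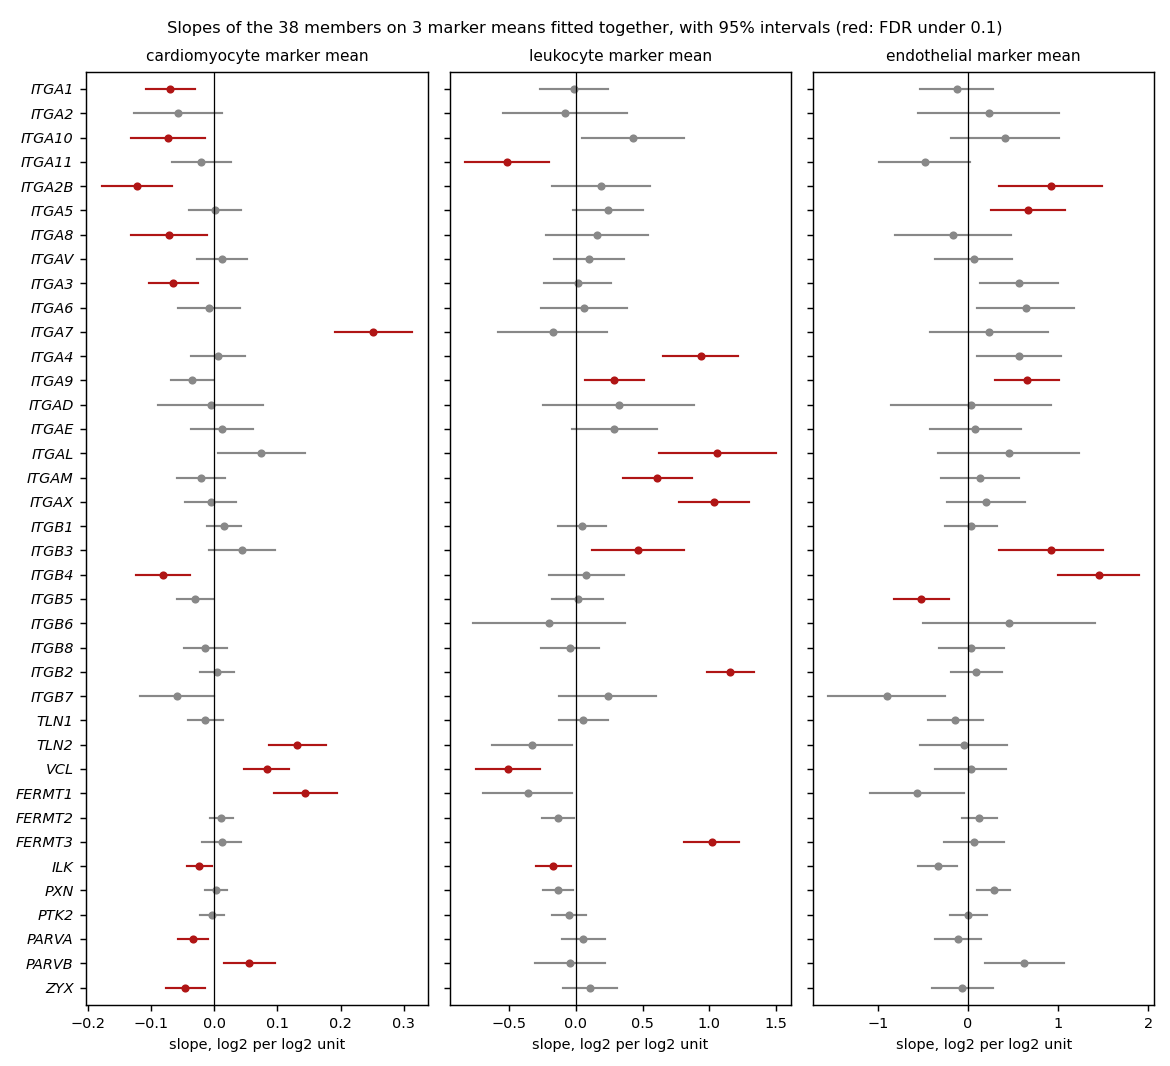
Slopes of the members on the muscle, leukocyte and endothelial marker means fitted together in 34 dogs, as log2 change per log2 unit (horizontal, own scale in each panel), with 95% intervals and members at an FDR under 0.1 in red. ITGB6, at 1.17 on muscle, is left out of the first panel because it lies far outside its axis. ITGA7 leads the muscle panel, ITGB2, ITGAL, ITGAX, FERMT3 and ITGA4 the leukocyte panel near a slope of 1, and ITGB4 the endothelial panel.

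Integrins work as alpha and beta pairs, so the 24 textbook pairs among the members were compared over the 34 dogs after the mean of each status and sex group was removed from log2(CPM + 1). The pairs were chosen after the data were seen. With 100000 permutations within groups and Benjamini-Hochberg adjustment over the 24 pairs, 6 pairs had an adjusted p under 0.1 by both Pearson's r and Spearman's rho. Of all 24, 19 had a positive r. Pairs of members that are not partners were not compared, so neither count has a background share beside it. The closest pair was ITGAX with ITGB2, with r = 0.906 and rho = 0.877 (permutation p = 1e-05 each, the smallest the resamples can give, adjusted p = 0.00012). For each pair, r was also taken without the 2 dogs whose alpha chain lay farthest from its median over all dogs. The beta chain had no part in choosing these 2 farthest dogs. Without them r of ITGAX with ITGB2 was 0.861, and within status it was 0.884 in 10y-noCHF and 0.931 in 10y-MMVD-CHF. ITGAM with ITGB2 gave r = 0.674 and rho = 0.602 (permutation p = 0.0001 and 0.00049, adjusted p = 0.0008 and 0.00392), r without the 2 farthest dogs being 0.629. ITGAL with ITGB2 gave r = 0.612 and rho = 0.587 (permutation p = 0.00039 and 0.00067, adjusted p = 0.00234 and 0.00402), and r = 0.522 without them. These chains also shared the leukocyte slope above. ITGAD with ITGB2 gave r = 0.0783 and rho = 0.0827 (permutation p = 0.667 and 0.652, adjusted p = 0.762 and 0.817).

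ITGAV stood out among the partners of ITGB1, with r = 0.84 and rho = 0.818 (permutation p = 1e-05 each, adjusted p = 0.00012), 0.825 without the 2 farthest dogs, 0.871 within 10y-noCHF and 0.801 within 10y-MMVD-CHF. Neither chain was called on any marker mean, and r was 0.845 after the muscle marker mean was regressed out. ITGAV was not called with its other partners, where r was 0.253 with ITGB3, 0.129 with ITGB5, 0.0856 with ITGB6 and 0.244 with ITGB8. ITGA6 with ITGB1 gave r = 0.498 and rho = 0.455 (permutation p = 0.00532 and 0.0114, adjusted p = 0.0255 and 0.0455), and 0.442 without the 2 farthest dogs. ITGAE with ITGB7 gave r = 0.446 and rho = 0.452 (permutation p = 0.0111 and 0.0105, adjusted p = 0.0444 and 0.0455), 0.362 without the 2 farthest dogs, and 22.4% of the ITGB7 span overlaps ZNF740. The collagen receptor chains gave r of 0.292 (ITGA1), -0.119 (ITGA2), -0.165 (ITGA10) and -0.0124 (ITGA11) with ITGB1, none called. After the muscle marker mean was regressed out, r of ITGA1 with ITGB1 was 0.604. ITGA2B with ITGB3, the platelet receptor, gave 0.0799, or 0.316 after the same regression. Of the 6 platelet markers tested the highest median over dogs was 1.67 CPM (TREML1), while PPBP reached 19.4 CPM in CAV749. The mean of the platelet markers was highest in CAV749 among 10y-noCHF dogs (1.76) and in CAV614 among 10y-MMVD-CHF dogs (1.04). ITGA2B was also highest of each group in these dogs, at 6.90 and 6.35 CPM. Whether the 2 are linked was not tested.

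**Figure D5:**
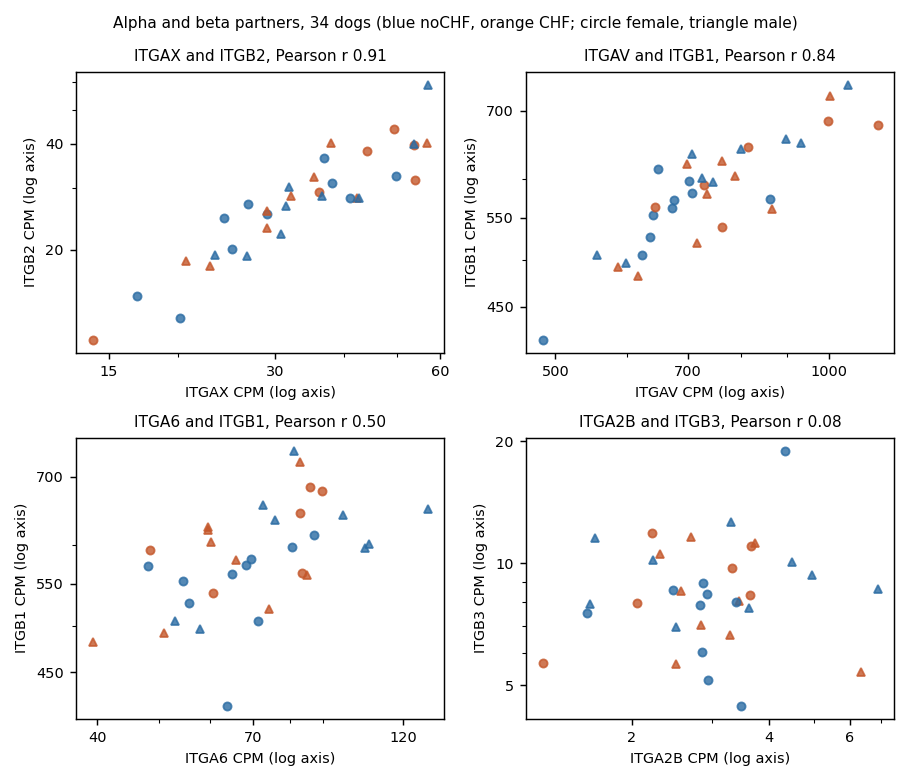
CPM of 4 alpha chains (horizontal, log axis) against a beta partner (vertical, log axis) in 34 dogs, in blue for 10y-noCHF and orange for 10y-MMVD-CHF, circles for females and triangles for males. Each r in the titles is of log2(CPM + 1) after group means were removed. ITGAX with ITGB2 and ITGAV with ITGB1 lie along a line with both groups mixed, while ITGA2B with ITGB3 scatters.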

How the data were processed

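The authors deposited raw counts per feature, which were made by mapping paired reads with STAR to canFam4/UU_Cfam_GSD_1.0 and counting with featureCounts 2.0.3 over canine RefSeq features augmented with aligned human XenoRefSeq genes. The STAR version is not given in the sources used here. Per the file headers reads of a pair were counted singly, without strand, and for every feature they overlapped. 1 count column matched no labelled sample and was not used. Where a symbol had both features, the canine one was taken. Features with at least 100 counts in total were tested with edgeR 4.0.16 (quasi-likelihood, TMM, R 4.3.3) on sex and CHF status at a Benjamini-Hochberg FDR of 0.1. The interaction with sex and the slopes on marker means (mean log2 of CPM + 1) were fitted the same way. Intervals are 95%. Alternatives were DESeq2 1.42.0, limma 3.58.1 voom with sample weights, other normalizations, filters, covariates and leaving out dogs. edgeR and the pair test were tested on simulated data. Pair correlations were permuted in Python 3.11.15 with numpy 2.4.6.

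All members are named, and of the other lists the called genes and the 5 smallest p-values, except 1 ligand that is not reported here. The members and lists were chosen with earlier results of these data known. Each dog is 1 library of 1 animal, and no dogs had identical counts. No batch is given in the labels.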

Additional observations from a re-analysis of the deposited data

Results flagged for a closer look

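For every member and each of the 4 groups of status and sex, the highest and the lowest dog were compared with their nearest neighbour. The measure was the gap divided by the group's range, both in log2(CPM + 1), while levels are given in CPM. Of 152 groups tested, 13 had a gap above Dixon's 95% critical value, where chance gives about 1 in 20 groups, or 7.6. CAV1047, the dog with the highest muscle marker mean, gave 8 of the 13, all among the 6 females with CHF. It was lowest for ITGA4 (6.56 CPM, next 18.2, gap 0.816 of the range), ITGA9 (114 CPM, next 260, gap 0.795), ITGAX (14.02 CPM, next 36.1, gap 0.697), ITGB2 (11.1 CPM, next 29.2, gap 0.696), ITGB4 (58.9 CPM, next 139, gap 0.715) and FERMT3 (11.5 CPM, next 27.7, gap 0.731). It was highest for TLN2 (142 CPM, next 51.6, gap 0.673) and VCL (833 CPM, next 320, gap 0.769). The part of its muscle content in these values was not tested.

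The other 5 came from 5 dogs. In males with CHF, CAV614 was highest for ITGA2B (6.35 CPM, next 3.71, gap 0.557), CAV487 for ITGA8 (157 CPM, next 86.2, gap 0.603) and CAV648 for ITGB4 (191 CPM, next 145, gap 0.516). In females without CHF, CAV748 was lowest for ITGB1 (417 CPM, next 506, gap 0.498) and CAV1732 highest for ITGB3 (18.9 CPM, next 8.91, gap 0.539).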

How the results depend on the processing

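No member was called between CHF and 10y-noCHF, by sex or by their interaction under any alternative run, nor was any of the 68 other focal adhesion genes with CHF. Members with an unadjusted p under 0.05 for CHF numbered 2 in the main analysis, where 1235 of all features had such a p. With voom they numbered 5 (adding ITGA9, ITGAD and ITGAL), beside 1975 of all features. They numbered 4 without CAV614 and CAV1047, beside 1570 of all features. With the leukocyte marker mean added they numbered 4 (1575 of all features), and with all 3 marker means added 4 (1387 of all features). With single dogs left out they numbered 2 to 5, 5 being without CAV614. The number over all features was not counted in the single-dog fits. All features called for CHF numbered 23 in the main analysis, 64 with DESeq2, 13 without the sex term, 35 with the leukocyte mean added, 36 with all 3 means added, 9 at an FDR of 0.05 and 8 to 28 with single dogs left out (8 without CAV1519 or CAV2102). The called ligands fell from 2 to 1 at an FDR of 0.05, without CAV614 and CAV1047, and in 11 of the single-dog fits (range 1 to 2), VWF being the one lost each time. The muscle slope called 21 members, 15 in the model of all 3 means, 15 without CAV614 and CAV1047, 15 with both changes and 16 to 22 with single dogs left out. The leukocyte slope called 21, and 11 in the model of all 3 means, 13 without CAV614 and CAV1047, 9 with both changes and 12 to 23 with single dogs left out (12 without CAV1047). The endothelial slope called 4, and 8 with voom, 8 in the model of all 3 means without CAV614 and CAV1047, 2 at an FDR of 0.05 and 2 to 6 with single dogs left out (2 without CAV1732, CAV444, CAV488, CAV648 or CAV748). For the slopes, the share of all features called was counted only in edgeR over all 34 dogs at the FDR of 0.1. The slope of ITGB2 on muscle changed sign in the model of all 3 means (0.0041, and 0.0074 without CAV614 and CAV1047), as did that of PARVB on leukocytes with both changes (0.0943). The cause of these changes was not tested. Over the called slopes and the CHF differences of ITGA11 and ITGA3, 284 values kept their direction and side of the threshold and 57 lost the call, and with single dogs left out 1520 kept it and 112 lost it. Among the CHF differences that were not called, those of VCL (11 of 34 fits), FERMT3 (3), ITGA7 and PTK2 (2 each) and ITGB3, ITGB6, TLN2, ILK and FERMT1 (1 each) changed sign with single dogs left out. Adding the leukocyte mean or all 3 means to the CHF model, and fitting the 3 slopes together without CAV614 and CAV1047, were chosen after the data were seen. The depth limits ITGB6, with 2 counts in each of CAV494 and CAV749. It had 8 to 22 counts in each of CAV1196, CAV1939, CAV447, CAV614, CAV444, CAV1049 and CAV487. ITGA2B, with 50 to 535 counts per dog, and ITGAL, with 58 to 301, are limited as well. Counting intervals were not used, since PCR duplicates are not separated in these counts.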
